A study of Mus musculus with 4 samples.

Results

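Integrins are the cell surface receptors that tie a cell to the proteins of the matrix around it. Each is a pair of 1 α and 1 β subunit, and the pair decides the ligand. The genes described here are 10 integrin subunits of brain endothelium, 6 α subunits (Itga1, Itga3, Itga4, Itga5, Itga6 and Itgav) and 4 β subunits (Itgb1, Itgb3, Itgb5 and Itgb8). They were chosen by gene symbol, and all 10 were found among the 21578 genes of the deposited tables. RNA was sequenced from brain endothelial cells of C57BL/6 mice at postnatal day 0, with 2 libraries of genotype Pd1fl/fl and 2 of genotype Pd1cKO-Tie2. Both genotypes carry the floxed Pd1 allele, and in Pd1cKO-Tie2 mice it is deleted by a Cre recombinase under the Tie2 promoter. Pd1 is the protein of the gene Pdcd1, a receptor best known as a brake on T cells. The Tie2 promoter is a limit of this model, since it is active in blood-forming cells and some macrophages as well as in endothelium. The study purified endothelial cells by flow cytometry, and its methods for endothelial culture name antibodies to CD31, an endothelial protein, and CD45, a leukocyte protein. No label says whether the 2 libraries of a genotype came from separate animals, litters or pools, so p-values here measure the spread between libraries, which may be technical.

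In brain vessels the β1 subunit pairs with α1, α3, α6, α5, α4 and αv, and these pairs bind the laminins, collagen IV and fibronectin of the vascular basement membrane. The αv subunit also pairs with β3, β5 and β8. The pairs αvβ3 and αvβ5 bind vitronectin and other proteins with an RGD motif. The pair αvβ8 is best known on glia and other cells around the vessel, where it binds latent TGFβ and is needed for normal growth of brain vessels. Outside the endothelium, α4β1 is a receptor of leukocytes for the endothelial protein VCAM1, α6β1 and β3 are platelet proteins, and β3 pairs there with αIIb.

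The total count was 14359990 and 13715837 in Pd1fl/fl replicates 1 and 2, and 24147311 and 14157027 in Pd1cKO-Tie2 replicates 1 and 2. Of the 4 libraries, Pd1fl/fl replicate 1 alone had listed reads on Pdcd1, 32 of them. The Pd1cKO-Tie2 libraries held 0, and a count of 0 allows up to 3 counts. The 0 of Pd1fl/fl replicate 2 was filled in for an unlisted gene, which may hold fewer than 5 counts. So only 1 control library checks the deletion in these data. The study itself reported lower Pd1 RNA and protein in endothelial cells of Pd1cKO-Tie2 mice. Endothelial transcripts were abundant in every library, and transcripts of other cell types were present too. Cldn5, the main claudin of the blood-brain barrier, stood at 5502 and 4763 CPM (read counts divided by the library total and scaled between libraries by edgeR's TMM method) in Pd1fl/fl and at 6550 and 6997 CPM in Pd1cKO-Tie2. Pecam1, which encodes CD31, lay between 409 and 575 CPM, and Cdh5, the cadherin of endothelial junctions, between 152 and 239 CPM. Ptprc, which encodes CD45, lay between 54.5 and 138 CPM. By library, 14 endothelial markers summed to between 15388 and 20654 CPM. Lists of 10 markers each summed to 3748 to 5732 CPM for pericytes and smooth muscle and 775 to 2516 CPM for microglia and macrophages. They summed to 977 to 1272 CPM for radial glia and astrocytes and 1036 to 1406 CPM for neurons. Pd1fl/fl replicate 1 stood apart by its neutrophil markers, which summed to 1065 CPM there and to between 62.7 and 112 CPM in the others. Ltf, Camp and Elane were at 0 in the others, but not every marker was. Mmp9 held 157 CPM in Pd1fl/fl replicate 1 and between 56.5 and 72.0 CPM in the others. A gene with groups that do not overlap had both Pd1cKO-Tie2 libraries above, or both below, both Pd1fl/fl libraries.

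The collagen and laminin receptor subunits did not pass the test in either direction. Itga1, on chromosome 13, encodes the α subunit of the collagen receptor α1β1. Its level was 180.0 and 173 CPM in Pd1fl/fl, against 175 and 177 CPM in Pd1cKO-Tie2. The 4 values lay close together, and the groups overlapped. Itga6, on chromosome 2, encodes the laminin-binding subunit of α6β1, which anchors endothelium to laminin. It stood at 184 and 165 CPM in Pd1fl/fl, against 241 and 183 CPM in Pd1cKO-Tie2. The highest value was that of the deepest library, Pd1cKO-Tie2 replicate 1, while the other Pd1cKO-Tie2 library lay just under Pd1fl/fl replicate 1. Itga3, on chromosome 11, encodes a second laminin-binding subunit. Its values were 17.6 and 27.1 CPM in Pd1fl/fl, against 8.48 and 27.3 CPM in Pd1cKO-Tie2. The lowest and the highest value thus belonged to the same genotype.

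Of the fibronectin receptor subunits, Itga5 was level across the libraries and Itga4 was lower in both Pd1cKO-Tie2 libraries. Itga5, on chromosome 15, encodes the α subunit of α5β1, the fibronectin receptor of growing vessels. It stood at 115 and 118 CPM in Pd1fl/fl, against 122 and 109 CPM in Pd1cKO-Tie2, where 1 library lay above and the other below the controls. Itgav, on chromosome 2, encodes αv, the partner of β1, β3, β5 and β8. Its level was 34.5 and 45.7 CPM in Pd1fl/fl, against 33.8 and 34.4 CPM in Pd1cKO-Tie2. The groups were apart by a margin smaller than the gap between the Pd1fl/fl libraries. Itga4 (ENSMUSG00000027009) lies on the forward strand of chromosome 2 at chr2:79255426-79333123 (GRCm38) and encodes α4, whose pair α4β1 binds VCAM1 and fibronectin. It held 1307 and 1708 counts in Pd1fl/fl, against 1557 and 801 counts in Pd1cKO-Tie2. Scaled for depth, that was 90.4 and 120.0 CPM against 65.0 and 58.6 CPM. Both Pd1cKO-Tie2 libraries were lower than both Pd1fl/fl libraries.

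Among the β subunits Itgb1 was the one at high level. Itgb1 (ENSMUSG00000025809), on the forward strand at chr8:128685654-128733200, encodes β1, the common partner of the 6 α subunits above. It held 541 and 543 CPM in Pd1fl/fl, against 674 and 574 CPM in Pd1cKO-Tie2. The Pd1fl/fl libraries were all but equal, and both Pd1cKO-Tie2 libraries lay above them. Itgb3 (ENSMUSG00000020689), at chr11:104608000-104670476 on the forward strand, encodes β3, the partner of αv in endothelium and of αIIb in platelets. Its values were 38.8 and 64.0 CPM in Pd1fl/fl, against 34.0 and 22.6 CPM in Pd1cKO-Tie2. The groups did not overlap, yet the lower control lay closer to the higher Pd1cKO-Tie2 library than to the other control.

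Itgb5 and Itgb8, the other partners of αv, were held apart within a genotype more than between genotypes. Itgb5, on chromosome 16, encodes a receptor subunit for vitronectin. It stood at 36.7 and 10.9 CPM in Pd1fl/fl, against 14.2 and 16.2 CPM in Pd1cKO-Tie2, so that the controls enclosed the Pd1cKO-Tie2 values. Itgb8, on chromosome 12, encodes the subunit that binds latent TGFβ. Its level was 12.9 and 41.6 CPM in Pd1fl/fl, against 18.5 and 12.1 CPM in Pd1cKO-Tie2. The 3 low libraries included both genotypes. The plot of the members' levels by library shows these 3 patterns side by side.

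**Figure D1:**
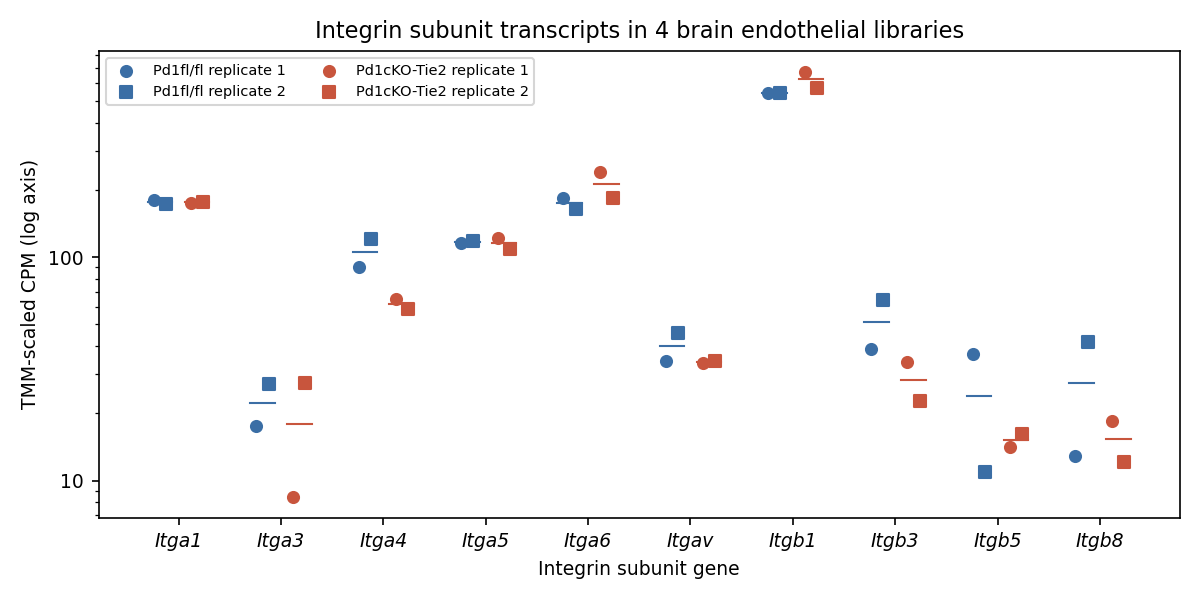
Level of each of the 10 integrin subunits (TMM-scaled CPM, log axis) in the 2 Pd1fl/fl and the 2 Pd1cKO-Tie2 libraries, with 1 point a library. Itgb1 lies above all other members in every library. Itga4, Itgb3 and, by a small margin, Itgav are lower in both Pd1cKO-Tie2 libraries. Itga3, Itgb5 and Itgb8 spread widely within a genotype.

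The comparison of Pd1cKO-Tie2 with Pd1fl/fl asks whether endothelial loss of Pd1 goes with a change in integrin expression. The criterion was the one in the study's methods, which asks for 2-fold or more at an unadjusted p no higher than 0.05, here with edgeR's quasi-likelihood test over the 15909 genes that passed its filter on low counts. All 10 members passed the filter and 0 of the 10 met the criterion, against 4.02% of all tested genes. DESeq2 and limma-voom also called 0 members by it, against 691 and 504 of the same 15909 genes. Without Pd1fl/fl replicate 1, the library that stood apart by its neutrophil markers, 2 of 10 met it (Itgb3 and Itgb8), against 4.03% of the genes tested in that fit. Without Pd1fl/fl replicate 2 it was 1 (Itgb5) against 4.92%, without Pd1cKO-Tie2 replicate 1 it was 1 (Itgb3) against 4.04%, and without Pd1cKO-Tie2 replicate 2 it was 0 against 3.82%. At an unadjusted p under 0.05 edgeR found 1 member, Itga4, against 6.39% of all tested genes. At that threshold limma-voom found 1 member, against 1026 of the 15909 genes, and DESeq2 found 2, against 1148. With adjustment over all tested genes, 0 members had a p under 0.05 with edgeR, limma-voom or DESeq2. DESeq2 called 0.729% of all tested genes at that threshold and edgeR 0%. The common coefficient of variation in edgeR's fit was 0.61.

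Itga4 was the member with the smallest p, rank 350 of all tested genes. Its mean was 105 ± 20.9 CPM (SD, n = 2) in Pd1fl/fl, against 61.8 ± 4.57 CPM in Pd1cKO-Tie2. The log2 fold change in edgeR was -0.77 with a standard error of 0.23 and a 95% interval from -1.34 to -0.19. Its Benjamini-Hochberg adjusted p was 0.735 by edgeR's quasi-likelihood test and 0.235 with DESeq2, and it ran from 0.235 to 0.998 over the alternatives. The difference between genotypes, 1.70-fold in CPM, was larger than the 1.33-fold between the Pd1fl/fl libraries and the 1.11-fold between the Pd1cKO-Tie2 libraries. The unadjusted p was no longer under 0.05 without Pd1fl/fl replicate 2, where the log2 fold change was -0.55, or without Pd1cKO-Tie2 replicate 2, where it was -0.69. Exons of Itga4 overlap those of Cerkl on the other strand over 1124 bases, and the use of strand in counting is not stated in the sources used here, so reads from that stretch cannot be told apart. Itgav overlaps Gm13684 on the other strand over 634 bases and Itga1 overlaps Gm49395 on its own strand over 685 bases, and the other members have no such overlap.

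Itgb3 had the largest log2 fold change of the members, -0.86 with a standard error of 0.37 and an interval from -1.79 to 0.07. The mean was 51.4 ± 17.8 CPM in Pd1fl/fl, against 28.3 ± 8.10 CPM in Pd1cKO-Tie2 (SD, n = 2 each). It did not pass, with an adjusted p of 0.823 in edgeR. The 1.82-fold difference in mean CPM was larger than the within-genotype ratios of 1.65 and 1.51. Its call turned on single libraries. Leaving out Pd1fl/fl replicate 1 gave a log2 fold change of -1.17 (edgeR adjusted p = 0.779) and leaving out Pd1cKO-Tie2 replicate 1 one of -1.18 (edgeR adjusted p = 0.909), both past the criterion, while leaving out Pd1fl/fl replicate 2 gave -0.45. Itga4 and Itgb3 were the members, of the 10, whose genotype means differed by a larger ratio than the libraries of either genotype. The share of all tested genes that do so was not computed, so this does not set them apart from other genes.

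Itgb1 and Itga6 were the members with log2 fold changes above 0, at 0.20 (SE 0.14, edgeR adjusted p = 0.956) and 0.28 (SE 0.20, edgeR adjusted p = 0.959), though both lay below 0 when the libraries were scaled to endothelial markers. Over all tested genes 49.6% had a log2 fold change above 0, and 8 of the 10 members lay below 0. The members' median was -0.28, beside -0.0038 over all tested genes. These summaries rested on single libraries. Without Pd1fl/fl replicate 2 the members' median was -0.0038, beside 0.044 over all genes tested in that fit, and 5 members lay below 0. Without Pd1cKO-Tie2 replicate 1 their median was -0.15, beside -0.068 over all genes, and 6 lay below 0. With endothelial marker scaling their median was -0.65 and 10 lay below 0, where the median of all genes was itself -0.36. The share of all genes below 0 was not computed for these alternatives. Groups did not overlap in 4 members, or 40%, of which 3 were lower (Itga4, Itgav and Itgb3) and 1 higher (Itgb1). That is near the 35.8% of all tested genes, 17.8% higher and 18.1% lower, whose groups did not overlap.

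With TMM scaling the data bounded the change of 5 members. With endothelial marker scaling the log2 fold changes of these 5 were all lower, Itgav at -0.59, so the bounds hold for TMM scaling only. The 95% intervals of Itga1 (-0.39 to 0.37), Itga5 (-0.46 to 0.43), Itga6 (-0.20 to 0.77), Itgav (-0.94 to 0.47) and Itgb1 (-0.14 to 0.54) lay within 2-fold in both directions. For Itga1 and Itga5, the collagen and fibronectin receptor subunits, the log2 fold change itself was -0.01 in each. The intervals of Itga3, Itga4, Itgb3, Itgb5 and Itgb8 extended past 2-fold. In Itgb8 the interval ran from -2.34 to 0.68 around a log2 fold change of -0.83, and in Itgb5 from -2.15 to 0.85 around -0.65. With 2 libraries a genotype an exact permutation test of a single gene cannot give a two-sided p under 0.333.

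**Figure D2:**
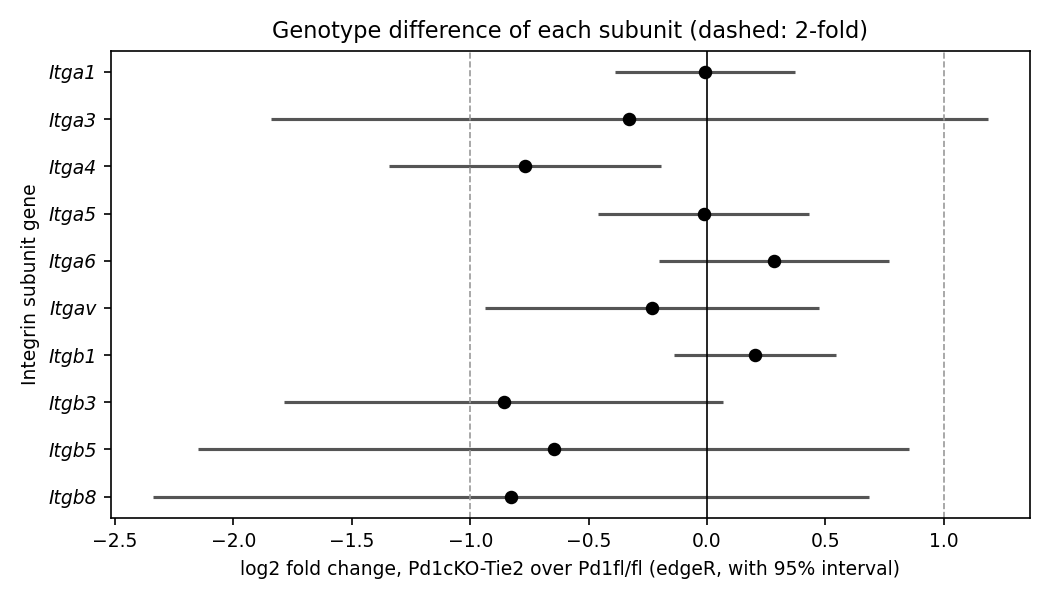
Log2 fold change of each member, Pd1cKO-Tie2 over Pd1fl/fl, from edgeR's fit with TMM scaling over all tested genes. Lines are 95% intervals, and dashed lines mark 2-fold. The interval of Itga4 leaves out 0, and those of Itga1, Itga5, Itga6, Itgav and Itgb1 stay within the dashed lines.

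The members can be read against the endothelial markers, which were at higher levels in the Pd1cKO-Tie2 libraries. The 14 of 14 endothelial markers were higher in both Pd1cKO-Tie2 libraries than in both Pd1fl/fl libraries, with a median log2 fold change of 0.35 and 0 past the criterion. They took 1.65% and 1.60% of the counts in Pd1fl/fl, against 1.97% and 2.00% in Pd1cKO-Tie2. In bulk samples fewer cells of a type and less RNA per cell cannot be told apart. When the libraries were scaled to the summed endothelial markers instead, the median of all genes moved to -0.36 and 2 members passed the criterion, Itga4 with -1.13 (edgeR adjusted p = 0.387) and Itgb3 with -1.22 (edgeR adjusted p = 0.388). By that scaling 6.25% of all tested genes passed, 138 higher and 857 lower, where TMM scaling gave 224 higher and 416 lower. On that scale Itgb1 stood at -0.15 and Itga6 at -0.06, which is 0.21 and 0.29 above the median of all genes.

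Markers of some other cell types were lower in the same libraries as Itga4 and Itgb3, and others were not. The microglia and macrophage markers were lower in 10 of 10 genes by log2 fold change and apart in 8, with 2 past the criterion. Their summed level was 2039 to 2516 CPM in Pd1fl/fl, against 775 to 1722 CPM in Pd1cKO-Tie2, and none of the 10 was at 0. Radial glia and astrocyte markers were lower and apart in 7 of 10, with 2 past the criterion, and summed to 1224 to 1272 CPM in Pd1fl/fl, against 977 to 991 CPM in Pd1cKO-Tie2. The other 3 of that list, Vim, Nes and Sox2, named after their values were seen, had log2 fold changes above 0, and Nes had groups that did not overlap (0.65, edgeR adjusted p = 0.817). Pericyte and smooth muscle markers lay below 0 in 7 of 8 tested genes, with 3 apart and lower, 1 apart and higher, and 0 past the criterion. They summed to 5732 and 3748 CPM in Pd1fl/fl, against 3852 and 3824 CPM in Pd1cKO-Tie2. The neutrophil markers, high in Pd1fl/fl replicate 1, lay below 0 in 5 of 5 tested genes, with 2 past the criterion and 1 apart. Platelet markers, with 0 of 6 past the criterion, summed to 118 to 129 CPM in Pd1fl/fl and 105 to 109 CPM in Pd1cKO-Tie2. That list includes the integrin gene Itga2b, at 75.3 and 74.4 CPM against 56.4 and 56.6 CPM, so most of each sum was Itga2b. It was the 1 platelet marker with groups apart, and of the 6 log2 fold changes 2 lay above 0 and 4 below. Erythroid markers summed to 646 and 558 CPM in Pd1fl/fl, against 574 and 1070 CPM in Pd1cKO-Tie2. The higher sum rested on Pd1cKO-Tie2 replicate 2, while 5 of the 8 genes lay below 0 and their median was -0.14. The summed fibroblast and oligodendrocyte lineage markers were 1.06-fold and 1.07-fold as high in Pd1cKO-Tie2. The neuron markers had a median log2 fold change of -0.10 with 1 of 10 apart. The part of these cell types in the levels of Itga4 and Itgb3 was not tested.

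Within a genotype, the members differed in how far their libraries lay apart. The ratio of the higher to the lower library in Pd1fl/fl was 1.00 for Itgb1, 1.02 for Itga5, 1.04 for Itga1 and 1.12 for Itga6, and in Pd1cKO-Tie2 it was 1.17, 1.12, 1.01 and 1.32. Over the 9448 tested genes with a mean of at least 10 CPM, the median ratio was 1.25 in Pd1fl/fl and 1.24 in Pd1cKO-Tie2, and 9.49% and 9.32% differed by more than 2-fold. Of these 4 members, picked for their small ratios, only Itga6 in Pd1cKO-Tie2 lay above that median. They were also the 4 members of highest mean CPM in each genotype. Itga3 and Itga4, whose subunits pair with β1 too, had larger Pd1fl/fl ratios, 1.53 and 1.33. The ratios of Itga4 were 1.33 and 1.11, those of Itgav 1.33 and 1.02, and those of Itgb3 1.65 and 1.51. Itgb5 differed 3.37-fold between the Pd1fl/fl libraries, with a 95% counting interval from 2.81 to 4.06, and Itgb8 differed 3.23-fold, with an interval from 2.74 to 3.83. They differed in opposite senses, since Itgb5 was higher in Pd1fl/fl replicate 1 and Itgb8 in Pd1fl/fl replicate 2. Itga3 differed 3.22-fold between the Pd1cKO-Tie2 libraries, with an interval from 2.70 to 3.84. Counting error, at most 8.03% for a member, is smaller than these gaps, and the intervals cover counting error only.

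For these 3 members the sign of the difference rested on single libraries. Itgb8 went from a log2 fold change of -1.44 without Pd1fl/fl replicate 1 (edgeR adjusted p = 0.749, past the criterion) to 0.26 without Pd1fl/fl replicate 2. Itgb5 went from 0.48 without Pd1fl/fl replicate 1 to -1.27 without Pd1fl/fl replicate 2 (edgeR adjusted p = 0.761, past the criterion). Itga3 ranged from -1.39 to 0.30. Itga4, Itgav, Itgb3, Itga6 and Itgb1 kept their sign with each library left out. Their log2 fold changes then ran from -0.95 to -0.55 for Itga4, from -0.42 to -0.01 for Itgav and from 0.09 to 0.32 for Itgb1.

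**Figure D3:**
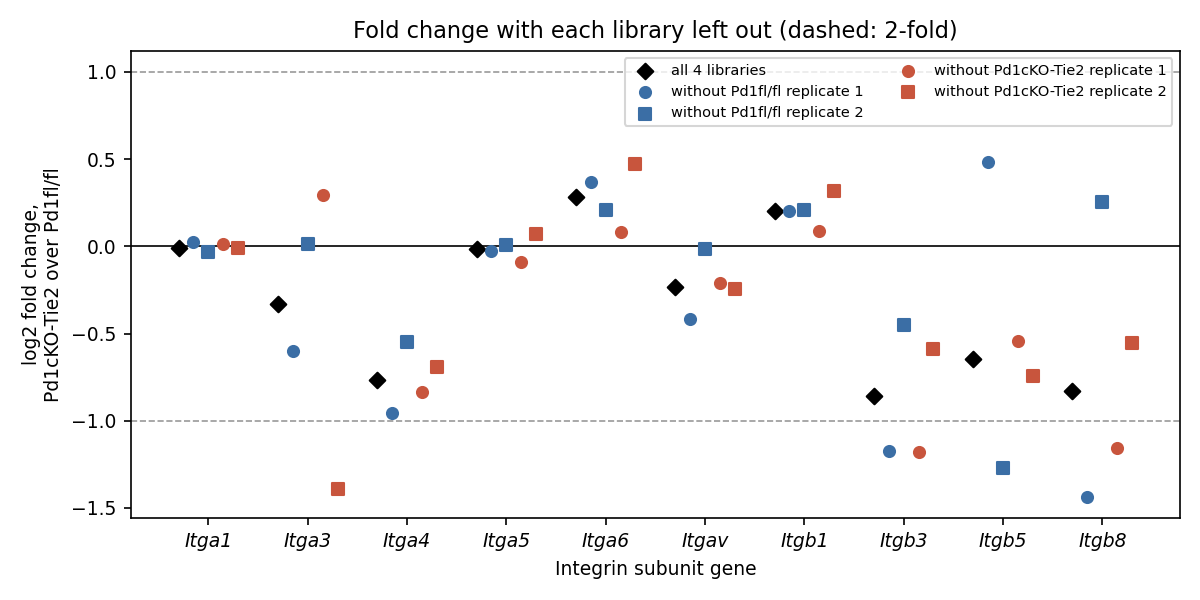
Log2 fold change of each member (edgeR, Pd1cKO-Tie2 over Pd1fl/fl) with all 4 libraries and with each library left out in turn. Itgb5, Itgb8 and Itga3 cross 0 by wide margins, and Itga4 stays between -0.95 and -0.55.

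Levels of different members can be compared only per length, and CPM was divided for this by the exon length of each gene in kilobases. Itgb1 led with 142.9 ± 15.3 CPM per kb (SD over 4 libraries), and it was the highest member in each library and by each length tried. Itga5 followed with 23.5 CPM per kb and Itga6 with 21.4, and these 2 were in that order in 3 of 4 libraries. Itga1, at 9.48 CPM per kb, lay under Itga6 in 4 of 4 libraries. Below them stood Itgb3 (6.76), Itga4 (5.98), Itgb5 (5.49), Itga3 (3.52) and Itgav (3.45), and Itgb8 was lowest at 1.92 CPM per kb. Of the neighbours in this lower group, Itga4 and Itgb5, Itgb5 and Itga3, and Itga3 and Itgav each kept their order in only 2 of 4 libraries, so that their order is not set by these data. By coding length, which leaves out the long untranslated ends, Itga6 came second at 57.3 CPM per kb and Itga1 next at 49.8, ahead of Itga5 at 36.5.

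The subunit pools can be described within each library, where scaling between libraries plays no part. Of the summed level per kb of the 4 β subunits, Itgb1 made up 88.0% and 88.3% in Pd1fl/fl, against 93.5% and 93.7% in Pd1cKO-Tie2. The Pd1cKO-Tie2 libraries had the larger share, and the groups were apart. Itgb3 made up 4.36% and 7.19% in Pd1fl/fl, against 3.27% and 2.55% in Pd1cKO-Tie2. Itga5 held a nearly fixed share of the α pool, 35.3% and 34.6% in Pd1fl/fl, against 35.2% and 34.4% in Pd1cKO-Tie2. Itga6 took 30.9% and 26.4% against 38.1% and 31.7%, and Itga1 14.6% and 13.5% against 13.4% and 14.9%. Itga4 was lower by share as well, with 9.77% and 12.4% of the α pool in Pd1fl/fl against 6.63% and 6.54% in Pd1cKO-Tie2. Per Itgb1, the level of Itga4 per kb was 0.0488 and 0.0645 in Pd1fl/fl, against 0.0282 and 0.0298 in Pd1cKO-Tie2 by exon length, and 0.133 and 0.176 against 0.0769 and 0.0813 by coding length. The groups of this ratio were apart. A change of length scales each library's ratio by the same factor, so it changes the size and cannot change whether groups are apart. The summed α level was lower than that of Itgb1 alone in every library, between 0.425 and 0.518 of it by exon length, between 0.638 and 0.737 by the longest transcript and between 0.708 and 0.889 by coding length. RNA levels do not give the amounts of the protein pairs.

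**Figure D4:**
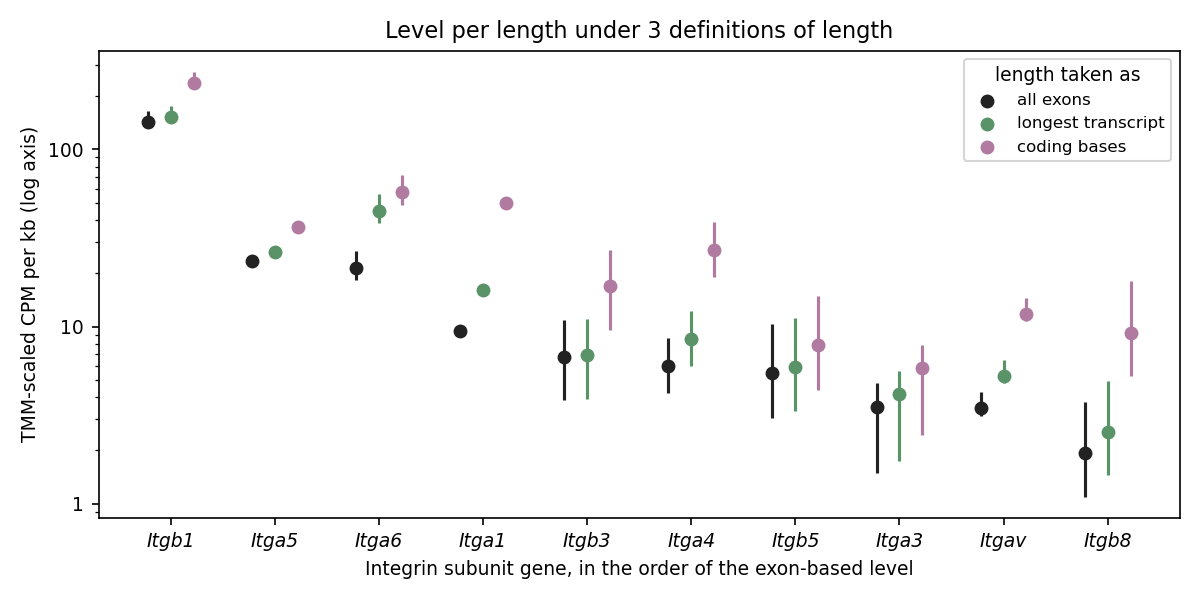
Level of each member per kilobase (TMM-scaled CPM per kb, log axis), with length taken as all exons, the longest transcript or coding bases. Points are means over 4 libraries, and lines run from the lowest to the highest library. Members are ordered by the exon-based mean. By each length the range of Itgb1 lies above all others. By exon length the ranges of the members from Itgb3 down to Itgav overlap.

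The other integrin subunits are mainly those of leukocytes, platelets and other tissues. Of 17 listed, 15 were analysed, 14 passed the filter, and 1 met the criterion, Itgam, which was lower. Over all tested genes 4.02% met it. Itgam encodes αM of microglia, macrophages and neutrophils, and it stood at 11.6 and 17.2 CPM in Pd1fl/fl, against 3.09 and 4.97 CPM in Pd1cKO-Tie2 (log2 fold change -1.84, SE 0.58, edgeR adjusted p = 0.735). With Pd1fl/fl replicate 1 left out 3 of these subunits met the criterion, and with Pd1fl/fl replicate 2 or Pd1cKO-Tie2 replicate 2 left out 2 did. The call of Itgam was lost without Pd1fl/fl replicate 2 and without Pd1cKO-Tie2 replicate 1, where the log2 fold change was -1.53 in each. Itgb2, the leukocyte β subunit that pairs with αM and αL, was at 59.3 and 99.0 CPM against 51.8 and 44.0 CPM (-0.73, edgeR adjusted p = 0.815). Itga2b, which encodes the platelet subunit αIIb, stood at 75.3 and 74.4 CPM against 56.4 and 56.6 CPM (-0.41, edgeR adjusted p = 0.905). Itgb7, the partner of α4 in lymphocytes, was at 49.4 and 19.5 CPM against 25.1 and 9.36 CPM, and those groups overlapped.

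These subunits were not all scarce beside the endothelial members. Per kb of exon, Itgb2 averaged 20.8 CPM over the 4 libraries and Itga2b lay between 10.3 and 13.8 CPM, against 6.76 CPM for Itgb3 and 5.98 CPM for Itga4. The 8 leukocyte and platelet subunits analysed summed to 227 and 249 CPM in Pd1fl/fl and to 163 and 148 CPM in Pd1cKO-Tie2. The 14 tested subunits had a median log2 fold change of -0.57, with 5 lower and 1 higher among those whose groups did not overlap. Together these were 42.9% of the list, near the 35.8% of all tested genes. The higher one was Itga9, a receptor subunit of lymphatic endothelium and other cells, at 12.5 and 13.6 CPM in Pd1fl/fl, against 19.1 and 19.9 CPM in Pd1cKO-Tie2 (0.58, edgeR adjusted p = 0.944). Counts were too low or too uneven to read in several. Itga7 held 27, 10, 329 and 3 counts and Itga11 held 35, 0, 44 and 180 counts, in the order Pd1fl/fl 1 and 2 and Pd1cKO-Tie2 1 and 2.

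Inside the cell, talins and kindlins bind the β tail and switch integrins on, and parvins, PINCH proteins and focal adhesion kinase join them to actin and to signalling. Of 28 genes of this machinery, 26 were analysed and tested, 0 were higher and 2 were lower by the criterion, with a median log2 fold change of 0.04. Over all tested genes 1.41% were called higher and 2.61% lower. Tln1, which encodes talin 1, stood at 210 ± 3.39 CPM in Pd1fl/fl, against 214 ± 16.6 CPM in Pd1cKO-Tie2 (SD, n = 2 each). Fermt2, the kindlin of endothelium, was at 123 ± 21.8 and 115 ± 20.6 CPM, and Ptk2, which encodes focal adhesion kinase, at 166 ± 38.1 and 157 ± 13.3 CPM. Each of these 3 differed between genotypes by less than the larger of its SDs.

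The genes that fell were Parvg and Apbb1ip, both best known in blood cells. Parvg, which encodes γ-parvin, stood at 68.6 and 74.6 CPM in Pd1fl/fl, against 28.9 and 31.1 CPM in Pd1cKO-Tie2 (-1.26, SE 0.24, edgeR adjusted p = 0.735, DESeq2 adjusted p = 0.0118). Apbb1ip, which encodes the talin recruiter RIAM, held 81 and 139 counts in Pd1fl/fl, against 18 and 4 counts in Pd1cKO-Tie2 (-3.84, SE 1.03, edgeR adjusted p = 0.735). The call of Apbb1ip was lost without Pd1fl/fl replicate 2, where the log2 fold change was -3.39 and 1 gene of the list remained past the criterion, and with limma-voom. The most abundant genes of the list were Lims1, which encodes a PINCH protein, Tns1 (tensin 1) and Cd47, a membrane partner of β3. Tns1 was 281 ± 39.9 CPM in Pd1fl/fl, against 373 ± 19.9 CPM in Pd1cKO-Tie2 (0.41, edgeR adjusted p = 0.762), and Lims1 was 425 ± 4.32 and 392 ± 31.2 CPM. The microglia and macrophage markers given above were lower in the same libraries as Itgam, Parvg and Apbb1ip, and their part was not tested.

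The members' ligands ranged from among the more abundant genes here to a few CPM. Col4a1 and Col4a2, the chains of basement membrane collagen bound by α1β1, stood at 1243 ± 115 and 1333 ± 106 CPM in Pd1fl/fl, against 1293 ± 50.9 and 1678 ± 79.2 CPM in Pd1cKO-Tie2. Lama4, the endothelial laminin chain bound by α6β1, was 760 ± 88.5 CPM against 930 ± 141 CPM, and Fn1 (fibronectin, bound by α5β1 and α4β1) was 802 ± 31.4 against 870 ± 19.3 CPM. Vtn, vitronectin, was 156 ± 9.46 against 140 ± 9.59 CPM. None of these 5 met the criterion. The laminin chains Lamb1, Lamc1 and Lama5 did not meet it either, and Lama5 was low, at 17.3 ± 4.34 and 24.3 ± 2.10 CPM.

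Of the 27 ligand genes, all tested, 1 was higher and 2 were lower by the criterion, against 1.41% and 2.61% of all tested genes. Their median log2 fold change was 0.06. The number of ligand genes past the criterion rose to 5 without Pd1cKO-Tie2 replicate 1. Vcam1, the ligand of α4β1 on inflamed endothelium, fell from 44.5 and 55.0 CPM in Pd1fl/fl to 21.1 and 22.2 CPM in Pd1cKO-Tie2 (-1.20, SE 0.28, edgeR adjusted p = 0.735, DESeq2 adjusted p = 0.0965). The groups were well apart, and the genes of receptor and ligand, Itga4 and Vcam1, were both lower in Pd1cKO-Tie2, with only Vcam1 past the criterion. Spp1, osteopontin, a ligand of αvβ3 and α4β1, rose from 12.7 and 23.2 CPM to 42.3 and 98.3 CPM (1.97, SE 0.52, edgeR adjusted p = 0.735, DESeq2 adjusted p = 0.0274). Without Pd1cKO-Tie2 replicate 2 its log2 fold change was 1.24 and the call was lost. Tgfb3, whose latent form is bound by αv integrins, fell from 9.06 and 9.35 CPM to 2.01 and 1.32 CPM (-2.46, SE 0.74, edgeR adjusted p = 0.735). That call was lost, with log2 fold changes from -2.48 to -2.19, when Pd1fl/fl replicate 1, Pd1fl/fl replicate 2 or Pd1cKO-Tie2 replicate 2 was left out.

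**Figure D5:**
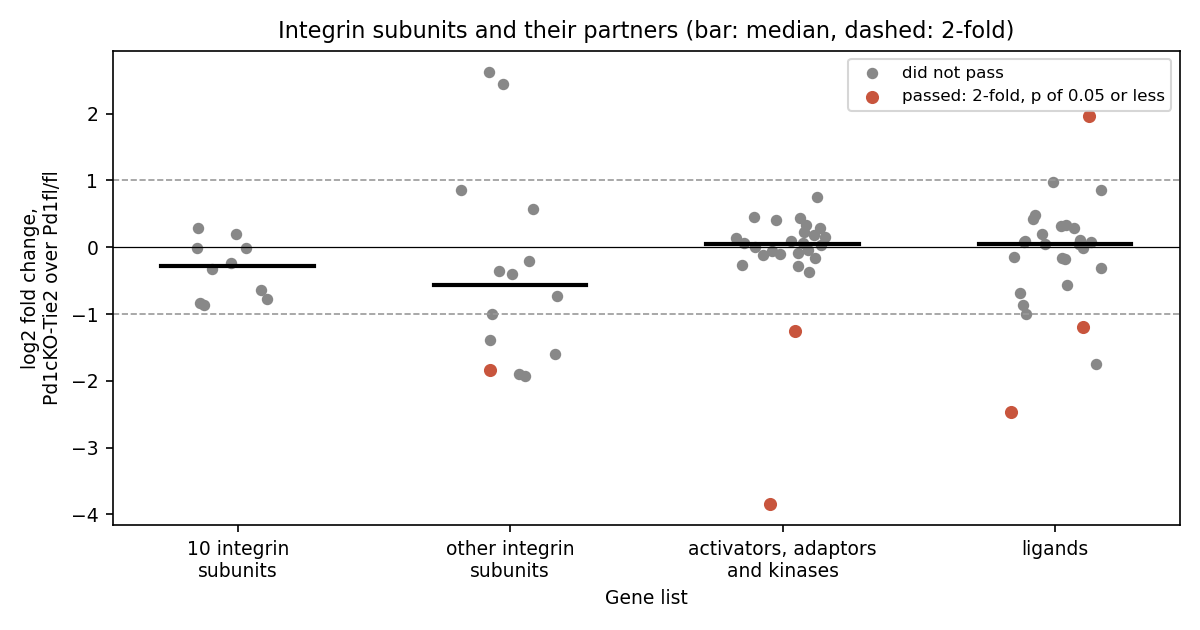
Log2 fold change (edgeR, Pd1cKO-Tie2 over Pd1fl/fl) of each tested gene in 4 lists, the 10 members, the other integrin subunits, the activators, adaptors and kinases, and the ligands, with a bar at each list's median and dashed lines at 2-fold. The medians are -0.28, -0.57, 0.04 and 0.06, and the genes that met the criterion are marked.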

How the data were processed

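Brain endothelial RNA of 2 Pd1fl/fl and 2 Pd1cKO-Tie2 libraries was analysed from 4 deposited tables. The deposited counts give the reads on each gene, not normalized, and the deposited CPM columns, the count divided by the library total by the authors, served only to recover the totals. Columns of the authors' own comparisons were not used. The submitters' processing notes name Bowtie2 2.2.3, TopHat2 2.0.12, HTSeq 0.6.0 and mm9, while the positions in the tables are those of GRCm38, 90.0% of them equal to GENCODE M21. The strand setting is not given in the sources used here. A table lists a gene if both libraries hold a count or 1 holds at least 5, and unlisted genes, with no more than 0.0107% of any library's reads, were taken as 0. Broken lines, 5 in each of 2 files, were passed over, and 23 symbols that had become dates were restored. Replicate 2 of Pd1cKO-Tie2 is a column whose number no label has, and it was used by genotype alone.

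The counts were tested with edgeR 4.0.16 (R 4.3.3), by its quasi-likelihood test with TMM scaling and filterByExpr, on 15909 genes, with Benjamini-Hochberg adjustment over all of them. Means ± SD are of scaled CPM. Ratios and levels per kb used exon lengths of GENCODE M21. Alternatives were DESeq2 1.42.0, limma-voom 3.58.1, RLE, upper-quartile, library size and endothelial marker scaling, no filter beyond 1 count, at least 10 counts in every library, the replicate number as a block, coding and longest transcript lengths, and leaving out each library. Where a genotype was left with 1 library, it was assumed to vary like the other genotype. Of the tests, the one by edgeR was checked on simulated counts with known changes. The members and lists were chosen with earlier results of these data known. The named genes are all members, other integrin subunits, partners that met the criterion, the 3 most abundant of each partner list and a fixed set of direct partners. Ptprc, the neutrophil markers named singly, and the examples of Itga7 and Itga11 were chosen after their values were seen. Fermt1, Ilk, Itgad and Itgb6 were not analysed here.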

Additional observations from a re-analysis of the deposited data

How the results depend on the processing

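Of 321 recomputed log2 fold changes of named genes 290 kept their direction and their side of the criterion. The number of members past the criterion, 0, was 0 with DESeq2, limma-voom, the other scalings by all genes, both filters and the replicate block, 2 with endothelial marker scaling, and between 0 and 2 with a library left out. All genes past the criterion numbered 995 with endothelial marker scaling. Other integrin subunits past it, 1, were 2 with endothelial marker scaling, 2 with at least 10 counts in every library, 2 with the replicate block and between 1 and 3 with a library left out. Activators and adaptors, 2, were 1 with limma-voom, 1 with at least 10 counts and between 1 and 2 with a library left out. Ligands, 3, were 5 with endothelial marker scaling, 5 with the replicate block and between 3 and 5 with a library left out. Same-numbered columns did not deviate together over all tested genes (correlation -0.0139). That value showed no pairing but cannot exclude one, so the replicate block is not read as a pairing. It called 445 genes in all against 640.

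Signs turned in 7 members and in Col4a2. Itga1 became 0.0006 without the filter, 0.0235 without Pd1fl/fl replicate 1 and 0.0119 without Pd1cKO-Tie2 replicate 1, in a range from -0.0311 to 0.0235. Itga3 became 0.0159 without Pd1fl/fl replicate 2 and 0.30 without Pd1cKO-Tie2 replicate 1, in a range from -1.39 to 0.30. Itga5 became 0.0054 without Pd1fl/fl replicate 2 and 0.0711 without Pd1cKO-Tie2 replicate 2, in a range from -0.0884 to 0.0711. Itgb5 became 0.48 without Pd1fl/fl replicate 1, in a range from -1.27 to 0.48, and Itgb8 0.26 without Pd1fl/fl replicate 2, in a range from -1.44 to 0.26. With endothelial marker scaling Itga6 became -0.0642, Itgb1 -0.15 and Col4a2 -0.0189. Of the 10 members, 1 kept its rank by coding length, 4 by longest transcript length, and between 5 and 10 with a library left out. By coding length the mean share of the α or β pool was 26.5% for Itga1, 14.2% for Itga4, 19.4% for Itga5, 6.28% for Itgav, 87.4% for Itgb1 and 3.41% for Itgb8. The cause of these differences was not tested. The counting error of the members' counts was between 0.787% and 8.03%.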
